A study of Mus musculus with 59 samples.

Results

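Trimethylation of lysine 4 on histone H3 (H3K4me3) was compared between uterine tissue of old and young C57/B6 mice. The tested libraries were all those the labels name aged group 3, from mice of 54 to 65 weeks (n = 10), and all those named young, from mice of 9 to 11 weeks (n = 7). These 17 libraries were taken by mark and age from the 59 samples of the series, and 25827 of 25835 H3K4me3 peaks were tested, which are those on chromosomes 1 to 19 and X. The labels give no treatment, genotype or cycle stage for either group. Each library came from nuclei of a snap-frozen piece of endometrial tissue of a single animal, so cell types were mixed in proportions that were not measured. Fewer cells of a type and less mark per cell cannot be told apart in such tissue. H3K27ac, acetylation of lysine 27 on the same histone and a mark of active promoters and enhancers, was measured in the same animals and is given beside the peaks described.

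H3K4me3 is laid down at the starts of genes that are active or poised for activity, mainly where CpG dinucleotides are dense, and it is read as a mark of promoters. Broad domains of it often cover genes that define a cell's identity. The endometrium is built of a luminal and glandular epithelium, a stroma that differentiates in pregnancy, vessels and leukocytes, with smooth muscle around it, and these cell types carry H3K4me3 at different genes.

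Promoter windows of 300 bases (250 before the start, 50 after) are printed here as examples of starts that gained and lost the mark. They run 5′ to 3′ on the strand of the gene, with each CpG in capitals. They are credited to RefSeq on GRCm38.p6, and are, in each direction, the first 3 by size of change among the promoters described in full that have a window within 1 kb of the changed peak. Oit1, Tmprss11g and Fer1l4 rose and hold 3, 3 and 5 CpG, while Prlr, Adam23 and Bahcc1 fell and hold 8, 31 and 23. Over the windows of all called promoters the medians lay closer, at 16 CpG for higher and 19 for lower ones.
Oit1 (chr14:8378714-8379013, minus strand): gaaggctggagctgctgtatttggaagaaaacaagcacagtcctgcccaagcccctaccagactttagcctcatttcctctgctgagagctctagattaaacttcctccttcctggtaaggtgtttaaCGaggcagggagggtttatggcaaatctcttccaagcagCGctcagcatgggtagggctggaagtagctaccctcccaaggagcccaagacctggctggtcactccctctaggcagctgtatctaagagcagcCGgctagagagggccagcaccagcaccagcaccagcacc
Tmprss11g (chr5:86518551-86518850, minus strand): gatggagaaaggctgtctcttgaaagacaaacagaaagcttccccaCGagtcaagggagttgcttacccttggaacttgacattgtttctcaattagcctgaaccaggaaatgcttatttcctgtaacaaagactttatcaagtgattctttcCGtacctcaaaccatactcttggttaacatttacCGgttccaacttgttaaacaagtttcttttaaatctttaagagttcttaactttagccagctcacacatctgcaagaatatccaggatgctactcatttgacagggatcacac
Fer1l4 (chr2:156052944-156053243, minus strand): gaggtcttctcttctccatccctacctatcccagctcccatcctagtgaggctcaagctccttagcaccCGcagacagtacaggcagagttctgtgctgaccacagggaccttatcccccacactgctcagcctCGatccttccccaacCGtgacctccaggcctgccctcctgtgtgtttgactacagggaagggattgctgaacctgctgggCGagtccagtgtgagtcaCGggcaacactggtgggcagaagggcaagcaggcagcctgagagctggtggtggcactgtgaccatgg
Prlr (chr15:10176988-10177287, plus strand): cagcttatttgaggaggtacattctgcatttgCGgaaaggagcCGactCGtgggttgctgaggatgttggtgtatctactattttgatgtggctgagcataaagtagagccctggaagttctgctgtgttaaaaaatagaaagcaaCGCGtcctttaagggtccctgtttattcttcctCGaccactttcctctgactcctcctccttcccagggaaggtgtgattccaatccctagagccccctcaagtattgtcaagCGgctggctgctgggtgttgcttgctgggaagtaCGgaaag
Adam23 (chr1:63445641-63445940, plus strand): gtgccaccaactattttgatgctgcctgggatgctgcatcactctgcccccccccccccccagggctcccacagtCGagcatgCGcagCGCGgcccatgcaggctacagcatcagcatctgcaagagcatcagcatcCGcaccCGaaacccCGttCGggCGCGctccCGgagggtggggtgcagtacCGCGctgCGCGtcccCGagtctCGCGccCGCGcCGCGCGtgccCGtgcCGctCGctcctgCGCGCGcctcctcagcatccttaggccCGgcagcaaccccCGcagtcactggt
Bahcc1 (chr11:120232697-120232996, plus strand): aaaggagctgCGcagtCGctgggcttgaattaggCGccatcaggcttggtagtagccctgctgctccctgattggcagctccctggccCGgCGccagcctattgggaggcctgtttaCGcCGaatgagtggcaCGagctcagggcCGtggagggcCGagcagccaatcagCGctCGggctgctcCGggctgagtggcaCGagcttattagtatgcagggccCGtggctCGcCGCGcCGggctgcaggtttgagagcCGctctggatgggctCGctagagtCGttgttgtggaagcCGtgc

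The groups were sequenced to a like depth. Total reads ran from 7.361 M to 12.511 M in aged group 3 and from 7.827 M to 12.76 M in young, and 36.34% to 71.91% of reads in aged group 3 and 39.72% to 75.82% in young lay in peaks. Levels below are quantile-normalized log2 RPKM, reads scaled for peak length and library total, and a change is the log2 difference, aged group 3 minus young, ± the standard error (SE) of a limma model across all peaks. Called peaks have a Benjamini-Hochberg adjusted p under 0.05. Promoter peaks were found at 20 of 25 epithelial, 15 of 21 stromal and 14 of 16 smooth muscle markers. They were also found at 14 of 15 leukocyte and 12 of 14 blood endothelium markers, but at 4 of 14 T and NK cell markers. Of 12 squamous keratinocyte markers a single gene, Sfn, had one. Having a promoter peak thus did not single out the labelled tissue.

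The libraries of aged group 3 did not move as a block. Each library was set against peaks called without it, and the share of those peaks on the aged group 3 side of the midpoint between the group means was counted. At gained peaks the share was 94.2% to 98.3% in aged group 3 replicates 2, 6, 7, 8 and 9, 75.0% and 73.1% in replicates 1 and 5, and 36.1%, 40.6% and 31.2% in replicates 3, 4 and 10. In young it was 8.09% to 18.7% in replicates 1, 2, 3, 6 and 7, and 41.2% and 43.8% in replicates 4 and 5. Lost peaks gave the same order of library sets, with 94.8% to 97.5%, 65.5% and 67.5%, and 21.7% to 28.8% in those sets of aged group 3, against 7.28% to 13.6% and 31.6% and 39.5% in young. Replicates 3, 4 and 10 of aged group 3 thus had smaller shares than young replicates 4 and 5.

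**Figure D1:**
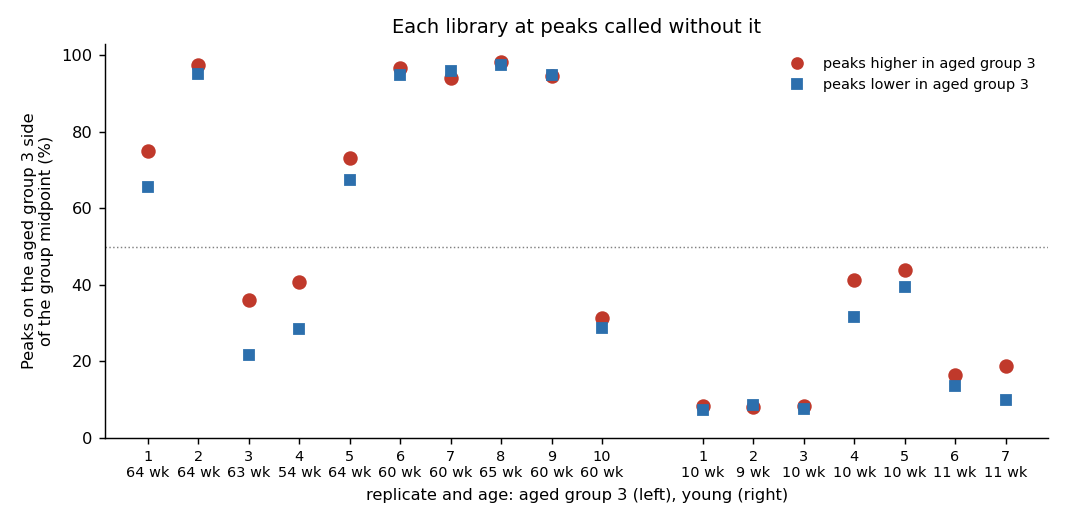
Each point is a library, aged group 3 on the left and young on the right, with its age in weeks. The y axis is the percentage of called peaks, called without that library, at which it lay on the aged group 3 side of the midpoint of the group means, for peaks higher (circles) and lower (squares) in aged group 3. Aged group 3 replicates 3, 4 and 10 lie at 31.2% to 40.6% for gained peaks, below young replicates 4 and 5 (41.2% and 43.8%).

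A score of epithelial minus stromal markers (mean level of 20 and 15 promoter peaks) moved with these positions. It was 1.73 to 2.42 in aged group 3 replicates 2, 6, 7, 8 and 9, 1.20 and 1.43 in replicates 1 and 5, and 0.29, 0.32 and -0.78 in replicates 3, 4 and 10, against -0.81 to 0.40 in young, where replicate 4 was highest. The code of each library opens with a digit that the labels do not explain, and digit 6 was carried by aged group 3 replicates 7, 8 and 9 and by no young library. Counts with the digit as a factor and with the score as a covariate are therefore given beside the main ones. The marker peaks of the score are themselves among the peaks tested.

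In all, 3675 peaks were higher in aged group 3 (14.2% of those tested) and 4246 were lower (16.4%), of which 1430 (5.54%) and 1131 (4.38%) differed by more than 2-fold. Every aged group 3 library lay above every young library at 0.918% of peaks and below every young library at 0.352%. With the code digit as a factor 1235 peaks were higher and 1097 lower, without the libraries of digit 6 1278 and 1181, and with the score as a covariate 123 and 52. Among the 13 libraries of the 5 digits that held both groups, with the digit as a factor, 198 were higher and 76 lower.

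Gains and losses differed by place. At promoters, here peaks within 1 kb of a RefSeq start of their gene, 1182 of 13155 peaks were higher (8.99%) and 2408 were lower (18.3%). Peaks inside genes but away from a start were higher at 1505 of 8149 (18.5%) and lower at 1271 (15.6%). Peaks beside genes, within 5 kb, were higher at 286 of 1349 (21.2%) and lower at 149 (11%), and peaks with no gene within 5 kb were higher at 702 of 3174 (22.1%) and lower at 418 (13.2%). Promoter peaks were stronger, with a median level of 3.64 in aged group 3 and 3.65 in young, against 1.99 and 1.93 for the peaks outside promoters. In the lowest quartile of mean level promoters still had 12% higher and 20.8% lower, against 23.8% and 15.2% inside genes and 26.4% and 15.8% with no gene within 5 kb. In the values as deposited the median of all peaks shifted by -0.139. There 2180 peaks were higher and 3667 lower, so higher peaks made up 37.3% of calls, against 46.4% after quantile normalization. Promoters held 442 of those higher peaks and 1769 of those lower ones. Outside promoters, with all classes pooled, fewer peaks were thus higher than lower as deposited. The larger share of gains outside promoters therefore depended on the normalization.

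**Figure D2:**
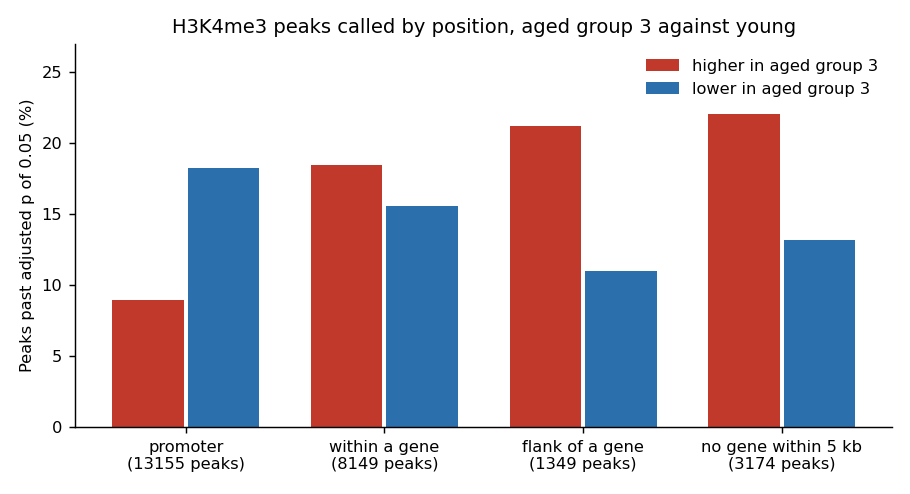
Bars give the percentage of H3K4me3 peaks of each position class called higher (left bar, red) or lower (right bar, blue) in aged group 3 than in young, with the number of peaks tested under each class. Promoters have 8.99% higher and 18.3% lower, while the other 3 classes have a larger share higher than lower. These shares are after quantile normalization. In the values as deposited fewer peaks outside promoters, all classes pooled, were higher than lower.

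The starts of gained genes held fewer CpG dinucleotides than those of lost genes. In the RefSeq windows of 300 bases, available for 9708 of 12543 genes with a promoter peak, the median was 16 CpG at higher promoters (n = 817), 19 at lower promoters (n = 1696) and 21 over all. Among changes over 2-fold, 71.0% of higher promoters (n = 162) and 41.4% of lower promoters (n = 256) held under 10 CpG, against 17.1% of all windows. These shares were not matched for level. Of 1305 promoter peaks in the lowest quartile of level 127 rose and 156 fell by over 2-fold, and of 5520 in the highest 0 did either. Of windows with 0 to 4 CpG 18.2% were higher and 17.9% lower, and of those with 30 or more 5.59% were higher and 16.3% lower.

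The forkhead motif TGTTTAC, searched on both strands, was in 2.69% of windows at higher promoters, 2.36% at lower promoters and 2.47% of all windows. The interferon response motif GAAANNGAAA was in 3.92%, 2.36% and 2.83%. The TATA box motif TATAAA was in 7.96%, 6.72% and 6.65%. These are matches of letters in a short window, and binding was not measured.

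Among promoters with no overlap between the groups, an established gene symbol and a mean level that was not below the lower quartile, the largest gains were at Oit1, Tmprss11g and Fer1l4. Promoters higher without overlap made up 0.357% of those tested and promoters lower without overlap 0.403%; 36 and 42 met the limits on symbol and level, and the 12 largest changes each way are described. Oit1, a member of the FAM3 family of secreted proteins, had levels of 0.46 to 4.51 in aged group 3 (median 2.74) and -5.35 to 0.37 in young (median -1.09) at chr14:8375243-8379309. Its aged group 3 values fell apart: replicates 2, 6, 7, 8 and 9 had 3.94 or more and the others 1.54 or less, all above young. The difference of means was 4.20 ± 0.70 (18.3-fold; limma adjusted p = 0.000189), on 63 to 1165 reads per library in aged group 3 and 1 to 68 in young.

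Tmprss11g, a transmembrane serine protease of the airway trypsin-like family, had levels of 1.11 to 3.83 in aged group 3 (median 3.11) and -3.68 to -0.11 in young (median -0.94). Replicate 3 was lowest in aged group 3 and replicate 2 lowest in young, where the peak (chr5:86517746-86519012) held 1 to 15 reads, so the 17.6-fold difference rests on few reads in young (4.14 ± 0.50; limma adjusted p = 3.2e-06). Fer1l4, of the ferlin family of membrane proteins, had 0.28 to 4.29 in aged group 3 and -1.51 to -0.35 in young (3.35 ± 0.55; limma adjusted p = 0.00016). Its young libraries lay close together, while in aged group 3 replicates 5 and 10 stayed under 0.4 and replicates 2, 6, 7, 8 and 9 were above 3.

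Smim31, which encodes a small membrane protein, had 1.86 to 4.21 in aged group 3 (median 3.21) and 0.11 to 0.90 in young (median 0.48), a difference of 2.63 ± 0.31 (limma adjusted p = 1.8e-06). The gap between the groups was larger than the whole range of young. Further gains were at Sectm1b, a secreted and transmembrane protein (2.35 ± 0.32), Lsmem1, a single-pass membrane protein (2.30 ± 0.31), Slc28a3, a nucleoside transporter of the plasma membrane (2.29 ± 0.38), and Aoc1, the diamine oxidase that breaks down histamine (1.89 ± 0.32). Pik3cd, the catalytic phosphoinositide 3-kinase subunit best known from leukocytes, had 0.87 to 2.62 in aged group 3 and -1.61 to 0.17 in young at a peak 319 bases from its start (2.51 ± 0.33; limma adjusted p = 1.18e-05). Ide, the insulin-degrading enzyme, rose by 2.04 ± 0.40 at a peak of 1136 bases, 749 bases from its start; replicate 5 was its highest aged group 3 library, unlike at Oit1.

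Forkhead transcription factors were also in this set, which was limited to promoters without overlap. Foxa2, needed for uterine gland formation in mice, had 1.99 to 3.87 in aged group 3 (median 2.91) and 0.28 to 1.41 in young (median 0.76), a rise of 1.98 ± 0.33 (limma adjusted p = 0.000197). Its highest aged group 3 library was replicate 1, and replicates 4, 5 and 10 were lowest, near 2. Foxc1, a regulator of mesenchyme, vessels and several epithelia, had 3.07 to 4.37 in aged group 3 (median 4.08) and 1.71 to 2.50 in young (median 2.22) over a domain of 7876 bases (chr13:31805529-31813404). Its SDs were 0.42 in aged group 3 and 0.29 in young, against medians over all peaks of 0.35 and 0.246. The rise was 1.73 ± 0.20 (limma adjusted p = 1.82e-06).

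All 12 gains passed with the code digit as a factor and in the values as deposited. With the score as a covariate 6 passed, Tmprss11g, Smim31, Pik3cd, Sectm1b, Lsmem1 and Foxc1 (limma adjusted p = 0.00173 to 0.0394), and Oit1, Fer1l4, Slc28a3, Ide, Foxa2 and Aoc1 did not (0.132 to 0.229). Foxa2 is itself a marker in the score. An H3K27ac peak overlapped 11 of the 12 gains, all but Foxa2, and rose at each (of all H3K27ac peaks 29.3% were called, 14.4% higher). The H3K27ac mean at Foxc1 was 2.26 in aged group 3 and -0.33 in young (2.60 ± 0.25; limma adjusted p = 4.08e-07), a larger log2 difference than in H3K4me3. At Tmprss11g it was 1.63 in aged group 3 and -0.88 in young (2.51 ± 0.48), and at Aoc1 1.87 and 1.24 (0.63 ± 0.20).

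**Figure D3:**
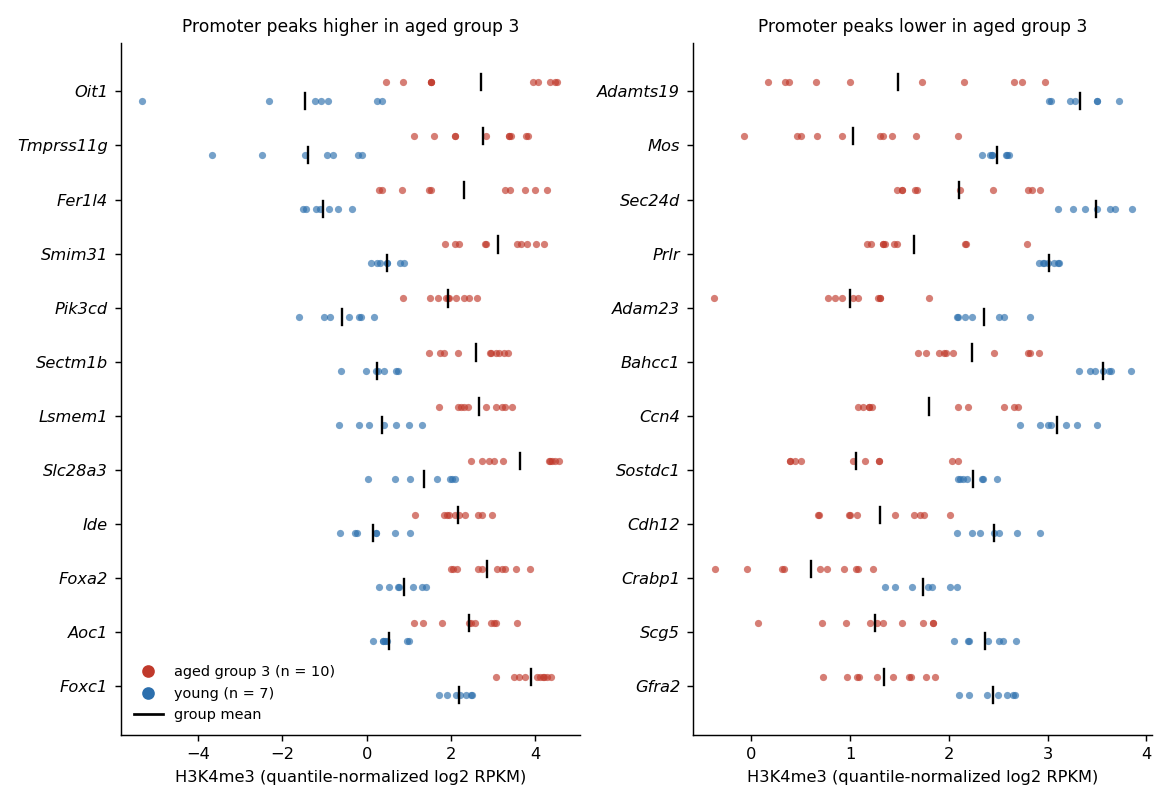
Each point is a library and each vertical bar a group mean, with aged group 3 (red, n = 10) above young (blue, n = 7) in each row. The x axis is the quantile-normalized log2 RPKM of the promoter peak. The 12 genes on the left were higher and the 12 on the right lower in aged group 3 with no overlap between groups, and aged group 3 is the wider group at most losses, as at Prlr (SD 0.54, against 0.08 in young).

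Within the same limits the largest losses at promoters were at Adamts19, Mos and Sec24d. Adamts19, a secreted metalloproteinase, had 0.17 to 2.98 in aged group 3 (median 1.37) and 3.02 to 3.72 in young (median 3.28), and fell by 1.84 ± 0.34 on the log2 scale, or 3.59-fold (limma adjusted p = 0.000488). Replicate 10 of aged group 3, at 2.98, all but touched the lowest young library, and replicates 2, 6 and 8 were under 0.4. Prlr, the prolactin receptor that in mice sustains pregnancy, had 1.17 to 2.79 in aged group 3 (median 1.40) and 2.92 to 3.12 in young (median 3.00). The young libraries lay close together, and the fall was 1.37 ± 0.20 (limma adjusted p = 3.24e-05). Replicate 4 was nearest to young.

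Bahcc1, a chromatin protein with a bromo-adjacent homology domain, had 1.69 to 2.92 in aged group 3 (median 2.01) and 3.31 to 3.85 in young (median 3.56) at chr11:120232116-120238887 (-1.32 ± 0.15; limma adjusted p = 1.7e-06). Its aged group 3 libraries did not follow the usual order, since replicate 10 was among the low ones (1.95) and replicate 1 was highest. Adam23, a disintegrin family adhesion protein, had -0.38 to 1.80 in aged group 3 and 2.08 to 2.83 in young (-1.36 ± 0.26; limma adjusted p = 0.000656). The value of -0.38, in replicate 6, stood on 3 reads.

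Genes of secreted signals and their receptors were among the other losses. Sostdc1, a secreted antagonist of BMP and Wnt signals, had 0.39 to 2.09 in aged group 3 and 2.10 to 2.49 in young (-1.18 ± 0.24), with replicates 3 and 10 just under the lowest young value. Gfra2, a co-receptor for neurturin, had 0.73 to 1.86 in aged group 3 and 2.10 to 2.67 in young (-1.10 ± 0.18). Ccn4, a matricellular protein induced by Wnt signals, fell by 1.29 ± 0.24, and Scg5, a chaperone of prohormone convertase, by 1.12 ± 0.23. Sec24d, a cargo-binding subunit of the COPII coat that serves procollagen export, fell by 1.39 ± 0.23, Mos, the oocyte kinase, by 1.46 ± 0.25, Cdh12, a cadherin, by 1.16 ± 0.24, and Crabp1, which binds retinoic acid in the cytoplasm, by 1.14 ± 0.25. Adjusted p for the 12 losses ran from 1.7e-06 to 0.00214 by limma.

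All 12 losses passed with the code digit as a factor and as deposited, and with the score as a covariate only Bahcc1 did (limma adjusted p = 0.0029). The 5 that an H3K27ac peak overlapped, Adamts19, Sec24d, Prlr, Bahcc1 and Ccn4, fell in that mark too (14.9% of H3K27ac peaks were lower), by 1.77 ± 0.52 at Adamts19 and 1.27 ± 0.17 at Bahcc1. Among mouse numbers under 100 alone (3 aged group 3 and 6 young libraries) 10 of the 12 gains and 6 of the 12 losses passed; Oit1, Lsmem1, Mos, Ccn4, Cdh12, Crabp1, Scg5 and Gfra2 did not (limma adjusted p = 0.0536 to 0.105).

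Mid-age mice gave levels of their own for these genes. Foxc1 averaged 2.19 in young, 3.10 in aged group 1 (28 to 36 weeks, n = 4), 3.21 in aged group 2 (42 to 48 weeks, n = 6) and 3.91 in aged group 3. Foxa2 averaged 0.88, 2.26, 2.01 and 2.86 in the same order, Prlr 3.02, 2.73, 2.62 and 1.65, and Sec24d 3.49, 3.34, 3.33 and 2.10. The means of Foxc1 thus differed between young and aged group 1 more than between the older neighbours, while those of Sec24d stayed close until aged group 3.

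Away from promoters the largest gain was close to that of Oit1. A peak with no gene within 5 kb (chr5:53928629-53930621) had 1.16 to 3.55 in aged group 3 (median 2.73) and -3.28 to -0.38 in young (median -1.27), a rise of 4.07 ± 0.40 (16.8-fold; limma adjusted p = 1.93e-07). H3K27ac rose there by 2.23 ± 0.25, and the young H3K4me3 libraries held 2 to 19 reads. Others lay at chr10:91734957-91735371 (3.70 ± 0.37, on 0 to 5 reads in young), chr4:53806204-53807446 (3.37 ± 0.42), chr18:24050485-24051943 (3.24 ± 0.41) and chr3:153077431-153083854 (3.17 ± 0.49). The last spanned 6424 bases, and its level was 1.74 to 4.73 in aged group 3 and -0.36 to 0.74 in young. With the score as a covariate it did not pass (limma adjusted p = 0.147), and the other 4 did.

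Inside genes, Dzip1, a zinc finger protein of the ciliary base, had 1.53 to 3.24 in aged group 3 (median 2.37) and -2.02 to -0.38 in young (median -0.90), at a peak 22496 bases from its start (3.56 ± 0.32; limma adjusted p = 4.31e-08). With the score as a covariate 4 of the 5 internal gains passed, Dzip1 at a limma adjusted p of 0.000157, and Frmd4a did not (limma adjusted p = 0.138). Aldh7a1, an aldehyde dehydrogenase, rose by 2.91 ± 0.35, Dst, a linker of intermediate filaments to hemidesmosomes, by 2.81 ± 0.29, Frmd4a, a scaffold of epithelial polarity, by 2.54 ± 0.39 and Rilpl1, a regulator of ciliary membrane content, by 2.48 ± 0.28, each at an internal peak over 10 kb from the gene's start. Of these 5 peaks 4 had an H3K27ac peak, which rose at each, and none overlapped the Frmd4a peak. These gains rested on few reads in young. Young libraries held 2 to 6 at Dzip1, 13 to 34 at Aldh7a1, 13 to 37 at Dst, 6 to 25 at Frmd4a and 3 to 28 at Rilpl1.

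Internal losses rested on few reads too, here in aged group 3. Ebf4, of the early B cell factor family, had -2.77 to 1.52 in aged group 3 and 1.85 to 2.75 in young (-2.48 ± 0.41; limma adjusted p = 0.000165), on 1 to 17 reads per library in aged group 3 and 26 to 56 in young. Ppp1r13l fell by 1.65 ± 0.28, Slc34a1, a sodium-phosphate cotransporter, by 1.60 ± 0.32, Gins1, a subunit of the replication helicase, by 1.54 ± 0.30 and Tsc22d1 by 1.5 ± 0.33. An H3K27ac peak overlapped 0 of these 5. Beside or away from genes, peaks next to Coro2b and Snx10 fell by 1.37 ± 0.22 and 1.28 ± 0.23, and peaks at chr3:75814367-75814890 and chr14:100749688-100751077 fell by 1.29 ± 0.26 and 1.29 ± 0.22, and one at chr15:36967168-36968207 was 2.52-fold lower. With the score as a covariate 2 of the 5 internal losses passed, Ebf4 and Gins1, and 0 of these 5 losses outside genes did (limma adjusted p = 0.0607 to 0.298).

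Some genes changed both ways, with a promoter peak and another peak called in opposite directions, and the 6 genes with the largest such pair are given. Kcnip1, a modulator of potassium channels, had 0.59 ± 0.81 in aged group 3 and 2.06 ± 0.31 in young at its promoter (SD, n = 10 and 7), and 1.36 ± 0.61 and -0.41 ± 1.28 at a peak 70954 bases from the start. The promoter thus fell by 1.47 ± 0.32 and the internal peak rose by 1.77 ± 0.41. Fgd3, an activator of Cdc42, fell at its promoter (-1.45 ± 0.32) and rose at a domain of 6577 bases inside the gene (1.84 ± 0.34). Frmd4b fell at one start (-1.25 ± 0.28) and rose at another (1.49 ± 0.32), and H3K27ac moved with both, by -1.29 ± 0.26 and 0.59 ± 0.19.

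At the other genes of this set the promoter rose. Myh14, a nonmuscle myosin heavy chain, rose by 1.97 ± 0.45 at a peak 998 bases from its start and fell by 1.41 ± 0.41 at an internal peak. Crabp2, which delivers retinoic acid to its receptor, rose by 1.48 ± 0.50 at its start and fell by 1.3 ± 0.33 at the next peak, 3494 bases from it. Its promoter level was -0.10 to 3.89 in aged group 3 and -0.03 to 0.56 in young, so that the groups overlapped. Morrbid, a long noncoding RNA of myeloid cells, rose by 1.37 ± 0.38 and fell by 1.12 ± 0.27 at a peak 239153 bases from its start. With the score as a covariate none of these 12 peaks passed (limma adjusted p = 0.144 to 0.99), and with the code digit as a factor 5 did: both of Kcnip1, the internal peaks of Fgd3 and Crabp2, and the gained start of Frmd4b.

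Broad domains were taken by width alone. The widest called peaks that rose lay over Hoxb5os (38981 bases, 0.56 ± 0.17), Lrig1, a brake on EGF receptors (25472 bases, 0.95 ± 0.30), Dync1i1 (17064 bases, 0.73 ± 0.16), Sall1 (15949 bases, 0.22 ± 0.08) and Bcat1, a branched-chain aminotransferase (13974 bases, 1.15 ± 0.25). Those that fell lay by Hoxa7 (30187 bases, -1.33 ± 0.28), Hoxd11 (22882 bases, -1.29 ± 0.28), Prdm1 (16408 bases, -0.55 ± 0.19), Wt1os, antisense to the tumour suppressor gene Wt1 (13570 bases, 2.52-fold lower), and Ptch1 (13548 bases, -0.29 ± 0.08). Hoxb5os, Sall1 and Ptch1 did not pass as deposited (limma adjusted p = 0.0852, 0.705 and 0.0724). With the code digit as a factor Dync1i1, Hoxa7, Hoxd11 and Wt1os passed and the other 6 domains did not (limma adjusted p = 0.0547 to 0.287). Of 1082 peaks wider than 5000 bases 26.2% were higher and 17.3% lower.

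HOX genes, which set position along the body axis and pattern the reproductive tract, formed 3 of those domains, and all peaks of the 4 clusters were then examined, a set chosen after those values were seen. In the Hoxc cluster 11 of 12 peaks fell (median change -1.38) and in the Hoxd cluster 5 of 5 (median -1.05). Over all H3K4me3 peaks 14.2% were higher and 16.4% lower. Neighbouring peaks over a single gene, as at Hoxc9 and Hoxc6, were counted apart and are not independent. Of 3 Hoxa peaks 2 fell, among them the domain over Hoxa9, Hoxa10 and Hoxa11, of which Hoxa10 and Hoxa11 pattern the uterus in mice. Its level was 1.12 to 3.63 in aged group 3 (median 2.18) and 3.15 to 4.24 in young (median 3.70), with overlap between groups. In the Hoxb cluster 4 of 8 peaks rose (median 0.44) and 0 fell. The peak over Hoxb8 and Hoxb7 had 2.75 to 4.27 in aged group 3 (median 4.04) and 2.91 to 3.57 in young (median 3.16), a rise of 0.68 ± 0.18 (limma adjusted p = 0.00579). With the code digit as a factor 8 of 12 Hoxc, 2 of 5 Hoxd, 2 of 3 Hoxa and 0 of 8 Hoxb peaks passed, and as deposited a single Hoxb peak did, that over Hoxb8. With the score as a covariate 1 of the 28 passed, in Hoxc. The peak named Hoxd11 is itself a marker in the score.

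**Figure D4:**
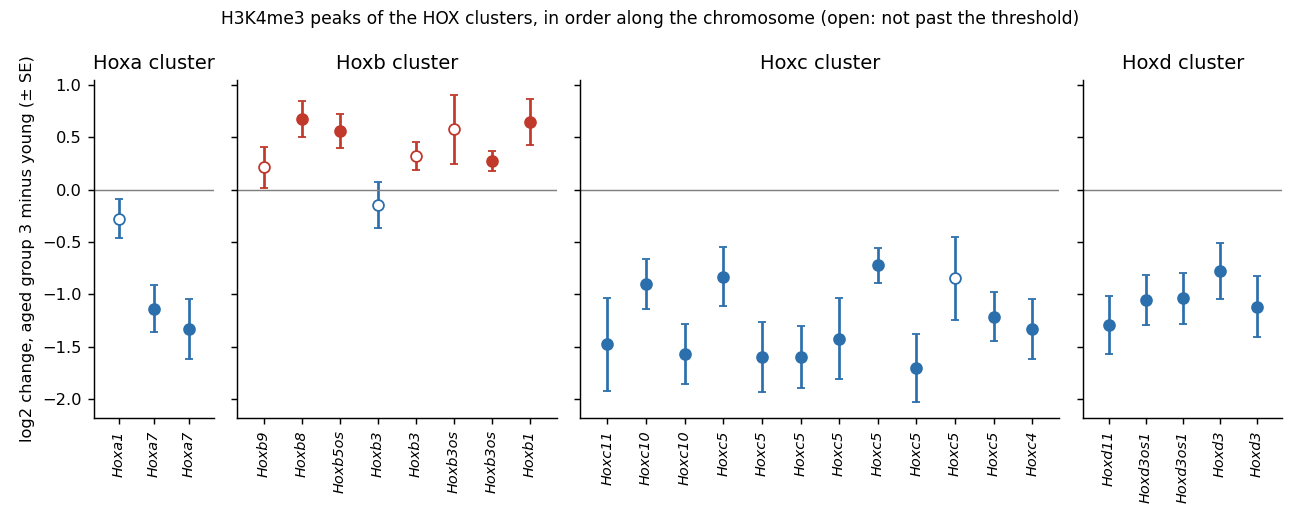
Points are the log2 change in H3K4me3, aged group 3 minus young, ± SE, at each peak of the 4 HOX clusters, named by the gene the deposited table gives and ordered along the chromosome. Red points are above 0, blue points below, and open points did not pass the threshold. Hoxb peaks reach 0.68, while Hoxc and Hoxd peaks run from -0.72 to -1.71.

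Promoters were then read by groups of genes, each gene by its promoter peak of highest mean. Of 12543 such genes 8.76% were higher and 18% lower, with a median change of -0.04. The shares were 1.98% higher and 5.19% lower with the code digit as a factor, and 0.183% and 0.191% with the score as a covariate. Of the promoter peaks of all members of the lists below 3 passed with the score by limma, those of Tmprss11g, Cytip and Aldh1a3. Genes of mucosal defence had the highest list median. In antimicrobial and mucosal secretion 7 of 11 measured genes rose and 1 fell (median 1.26). Ltf, lactoferrin, a classic oestrogen-induced secretion of the mouse uterus, had levels of -2.22 to 3.75 in aged group 3 (median 2.28) and -4.59 to 0.47 in young (median -2.70), a rise of 3.95 ± 0.83 (limma adjusted p = 0.00155). The groups overlapped. The cell-surface mucins Muc4 and Muc20 rose by 2.84 ± 0.64 and 2.52 ± 0.57, Pigr, which carries IgA across epithelia, by 1.99 ± 0.46, and Lcn2, which binds bacterial siderophores, by 2.74. Muc16, another surface mucin, fell by 1.89. With the code digit as a factor 4 rose and 1 fell.

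Serine proteases and their inhibitors moved in both directions. Of 15 measured genes 8 rose and 3 fell (median 0.41). The membrane proteases Tmprss4 (1.49 ± 0.33), Hpn (1.56 ± 0.36), Tmprss2 (0.44) and St14 (0.41), the inhibitors of membrane proteases Spint1 (0.60) and Spint2 (0.47) and the epithelial serpin Serpinb5 (2.35 ± 0.45) rose with Tmprss11g. Serpinh1, the collagen chaperone, Serping1, the C1 inhibitor, and Serpine2, a thrombin inhibitor, fell (-0.98 ± 0.19, -1.23 and -0.53). As deposited 4 rose and 2 fell, and with the code digit as a factor 5 rose and 1 fell.

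Basement membrane genes also moved in both directions: 6 of 27 rose and 10 fell (median -0.07). The rises included the laminin chains Lamb3 (2.33) and Lama5 (0.80), the hemidesmosome integrins Itga6 (0.48 ± 0.10) and Itgb4 (0.54 ± 0.12), and Itgb6, an epithelial integrin that activates TGF-beta (1.58 ± 0.29). The falls included the nidogens Nid1 (-1.44) and Nid2 (-1.19 ± 0.26), the collagen IV chains Col4a1 (-1.03 ± 0.22) and Col4a6 (-0.73), the laminin chains Lama2 (-1.22) and Lama4 (-0.68), and the integrin Itga8 (-0.63). Itga6 and Itgb4 did not pass as deposited (limma adjusted p = 0.126 and 0.114). Modelling the digit left 3 of the 27 higher and 3 lower.

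Hedgehog signalling runs from ligands made by the uterine epithelium to receptors and GLI factors in the stroma. Of 13 measured genes 6 fell and 0 rose (median -0.45). Gli2, a transcription factor of the pathway, had 1.71 to 3.53 in aged group 3 (median 2.32) and 3.16 to 3.67 in young (median 3.44), with overlap, and fell by 0.97 ± 0.21 (limma adjusted p = 0.00165). The falls included the receptor Ptch1 (-0.29 ± 0.08), the co-receptor Gas1 (-0.79 ± 0.18), the target and factor Gli1 (-1.01 ± 0.26) and the ciliary regulator Kif7 (-0.45). The ligand gene Ihh had a change of -0.74 and Smo, the signal transducer, -0.15, and neither passed. With the code digit as a factor 3 of the 13 fell, and with the score as a covariate the change of Gli1 was 0.12.

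Retinoic acid is made from retinol by dehydrogenases, bound by CRABP proteins and sensed by nuclear receptors. Of 14 measured genes of this pathway 7 fell and 3 rose (median -0.19). The retinol uptake receptor Stra6 (-1.32), the synthesis enzymes Aldh1a2 (-0.97 ± 0.23) and Aldh1a3 (-0.93 ± 0.20), the plasma carrier Rbp4 (-0.66) and the receptors Rarg (-0.42 ± 0.13) and Rarb (-0.29 ± 0.09) fell with Crabp1. Dhrs9, an enzyme of retinol oxidation, rose by 2.05 ± 0.60, with 2.64 as its median in aged group 3 and 0.06 in young, and Rara by 0.42 ± 0.12 with Crabp2. Rara, Rarb and Rarg are also on the nuclear receptor list, where 3 of 27 rose and 5 fell, among them the oestrogen receptor Esr1 (0.27) and Nr5a2 (-1.01 ± 0.25), while the progesterone receptor Pgr (0.03) did not pass. Those nuclear receptor counts lie near the 8.76% higher and 18% lower over all genes with a promoter peak. Rara did not pass as deposited (limma adjusted p = 0.259), and 0 nuclear receptors rose there. Modelling the digit, 2 of the 14 retinoic acid genes fell and 0 rose (median -0.06), and 1 of the 27 nuclear receptors fell and 0 rose.

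**Figure D5:**
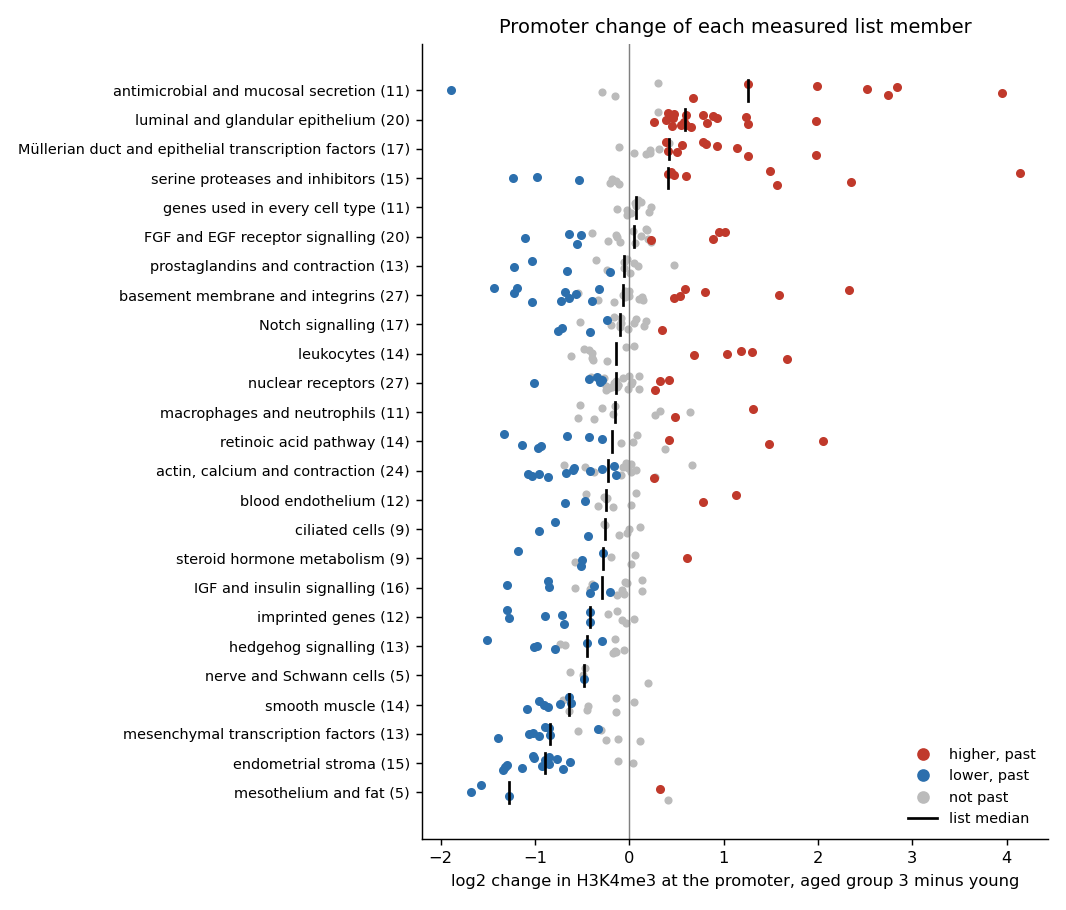
Each row is a gene list with its number of measured genes, and each point the log2 change at a gene's promoter, aged group 3 minus young. Red and blue points passed the threshold, grey points did not, and the black bar is the list median. Medians run from 1.26 for antimicrobial and mucosal secretion to -1.27 for mesothelium and fat, of which 5 genes were measured.

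Transcription factors were read by the tissue layer they are known from. Of 17 measured Müllerian duct and epithelial factors 10 rose and 0 fell (median 0.42), as at Ehf (1.25 ± 0.23), Msx2 (1.14), Ovol2, which holds the epithelial state (0.93 ± 0.23), Pax8 (0.81 ± 0.18) and Sox17, needed for gland formation in mice (0.78 ± 0.18). Of 13 mesenchymal factors 8 fell and 0 rose (median -0.84), including Osr1 (-1.39), the repressors of E-cadherin Snai1 (-1.06 ± 0.27), Snai2 (-1.02 ± 0.25) and Zeb2 (-0.89), and Twist1 (-0.85 ± 0.20). Of the transcription factors 4 of the 17 rose and 0 of the 13 fell with the code digit as a factor. The marker lists of the same layers moved alongside, which is partly built in because the lists share peaks. Foxa2, Ehf, Ovol2 and Sox17 are also epithelial markers, and Twist1 and Nr2f2 are also stromal markers. Epithelial markers were higher at 18 of 20 genes, with a list mean of 2.78 to 4.09 in aged group 3 (median 3.91) and 2.73 to 3.39 in young (median 2.99), and stromal markers lower at 13 of 15, with 1.67 to 3.56 in aged group 3 (median 2.33) and 2.99 to 3.54 in young (median 3.34). With the digit modelled 6 of the 20 epithelial markers were higher and 4 of the 15 stromal markers lower, against 8 and 13 as deposited. With the score of these markers as a covariate the changes of Ovol2, Snai1 and Snai2 were -0.07, 0.08 and 0.12. Ovol2 is itself a marker in the score, so its small value is partly built in.

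Among genes of contraction more fell than rose. In actin, calcium and contraction 11 of 24 fell and 1 rose (median -0.23), led by the filamin Flnc (-1.07 ± 0.20), Cald1, caldesmon (-1.03), the soluble guanylate cyclase subunit Gucy1a1 (-0.96 ± 0.22) and the L-type calcium channel Cacna1c (-0.86 ± 0.19), while the actin crosslinker Actn1 rose by 0.26 ± 0.06 but did not pass as deposited (limma adjusted p = 0.546). Of 13 genes of prostaglandins and contraction 4 fell and 0 rose: the receptors Ptger3 (-1.22 ± 0.24) and Ptgfr (-1.03 ± 0.31), Hpgd, which inactivates prostaglandins (-0.66 ± 0.15), and the gap junction gene Gja1 (-0.20 ± 0.07). The oxytocin receptor Oxtr (-0.24) and the cyclooxygenase Ptgs1 (-0.35) did not pass. Smooth muscle markers were lower at 7 of 14 genes, with a list mean of 1.16 to 2.17 in aged group 3 (median 1.56) and 1.93 to 2.71 in young (median 2.24). In the fit with the digit 5 of the 24 genes of actin, calcium and contraction fell and 1 rose, 2 of the 13 of prostaglandins and contraction fell, and 1 of the 14 smooth muscle markers was lower. How far the share of muscle in each piece of tissue entered these counts was not tested.

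Growth factor pathways were mixed. Over all genes with a promoter peak 8.76% were higher and 18% lower. The Notch counts and the falls among FGF and EGF receptor genes below lie near those shares. In IGF and insulin signalling 6 of 16 fell and 0 rose, among them binding proteins (Igfbp6 -1.29 ± 0.28, Igfbp4 -0.85 ± 0.21 and Igfbp5 -0.37 ± 0.11) with Irs2 (-0.86 ± 0.23), Grb10 and the receptor Igf1r (-0.20). In FGF and EGF receptor signalling 4 of 20 rose and 4 fell: the receptors Erbb4 (0.89 ± 0.20) and Erbb2 (0.23), the ligand Hbegf, an early signal of implantation in mice (1.02 ± 0.27), and Lrig1 were higher, and Fgf10 (-1.11 ± 0.34), Fgfr2 (-0.64), Fgfr1 (-0.51 ± 0.13) and the ligand Areg (-0.55) were lower. In Notch signalling 1 of 17 rose, Hes1 (0.34 ± 0.11), and 4 fell, as at Hey2 (-0.71 ± 0.16) and the ligand Dll1 (-0.41 ± 0.11). In steroid hormone metabolism 1 of 9 rose, Hsd17b11 (0.61 ± 0.14), and 4 fell, with the cholesterol transporter Star (-1.18 ± 0.36) changing most. In the fit with the digit 1 of 16 IGF and insulin genes fell, 1 of 20 FGF and EGF receptor genes rose and 0 fell, 2 of 17 Notch genes fell and 0 rose, and 1 of 9 steroid metabolism genes rose and 1 fell.

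Imprinted genes, which are read from a single parental copy, fell at 7 of 12 measured genes and rose at 0 (median -0.42). Meg3, a maternally expressed noncoding RNA, had -0.14 to 2.36 in aged group 3 (median 0.63) and 1.54 to 2.49 in young (median 2.17), with overlap, and fell by 1.27 ± 0.28 (limma adjusted p = 0.00183). Peg3, a paternally expressed zinc finger gene, had 1.37 to 2.49 in aged group 3 and 2.62 to 2.92 in young, with no overlap, and fell by 0.71 ± 0.16 (limma adjusted p = 0.00257). Zim1 (-1.29), Mest (-0.89 ± 0.23), Cdkn1c (-0.69 ± 0.20), Plagl1 (-0.42 ± 0.10) and Grb10 (-0.42 ± 0.12) fell as well, and with the code digit as a factor 2 of the 12 did. Of 20 germline genes 2 had a promoter peak, of which Mos fell. Among 11 measured genes used in every cell type 0 passed by limma after adjustment and 1 had an unadjusted p under 0.05; with the code digit as a factor, and as deposited, 0 did on either count. Gusb, the member of highest mean, had a change of 0.20 ± 0.10 (limma adjusted p = 0.112).

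Markers of other cells in the tissue moved in part, beside 8.76% higher and 18% lower over all genes with a promoter peak. The falls among blood endothelium, lymphatic endothelium and nerve markers below lie near that share or rest on few genes. Of 14 leukocyte genes 5 rose and 0 fell although the list median was -0.14: Cytip, an adhesion regulator (1.67 ± 0.21, with 2.23 to 3.81 in aged group 3 and 1.01 to 1.76 in young), Lcp1, an actin bundler (1.19 ± 0.17), Laptm5 (1.3 ± 0.26), Inpp5d (1.03 ± 0.23) and Ikzf3 (0.68 ± 0.17). Of 4 T and NK cell genes with a promoter peak 2 fell, Ncr1, an NK receptor (-1.76 ± 0.42), and Tcf7 (-0.35 ± 0.12). Itgae of that list had no promoter peak, but a peak inside it rose by 2.275 ± 0.225 (limma adjusted p = 2.07e-07). With the score as a covariate that peak still passed (1.54 ± 0.221, limma adjusted p = 0.000363). Of 2 B and plasma cell genes with a promoter peak both fell, Irf4 and Prdm1. Of 11 macrophage and neutrophil genes 2 rose, Cd14 (0.49 ± 0.12) and Itgam (1.31 ± 0.43), and the other 9 did not pass. The median of that list was -0.15. Of 5 measured markers of mesothelium and fat Msln (-1.68 ± 0.41), Upk3b (-1.57 ± 0.39) and Lrrn4 (-1.27 ± 0.26) fell, Pparg rose (0.33 ± 0.12) and Krt19 (0.41 ± 0.24) did not pass. Ciliated cell markers fell at 3 of 9 genes, blood endothelium had 2 up (Sox7 and Flt1) and 2 down (Esam and Kdr) of 12, lymphatic endothelium 1 down of 4 (Pdpn) and nerve 1 down of 5 (Ncam1). In the fit with the digit 4 of the 14 leukocyte genes rose, 0 of the 4 T and NK cell genes and 0 of the 11 macrophage and neutrophil genes passed, and Irf4 alone of the B and plasma cell genes fell. The 3 mesothelial markers that fell also did so there, while Pparg did not pass, and 1 of 9 ciliated cell, 1 up and 1 down of 12 blood endothelium, 0 of 4 lymphatic and 1 of 5 nerve genes passed.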

How the data were processed

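The authors deposited a table of log2 RPKM per peak and library for each mark, on GRCm38 per the file headers and labels, and peak positions were used as given. The submitters' processing notes name Bowtie2, MACS2 2.2.9.1, DiffBind 3.8.0, ChIPseeker 1.34.1 and deepTools 3.5.1 with no roles. The RPKM steps gave whole reads for 100.0% of values (tolerance 0.05), which were used for depth only.

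Log2 RPKM were quantile-normalized over the 27 H3K4me3 libraries of 4 age groups, and one limma 3.58.1 model of group means (mean-variance trend, two-sided, R 4.3.3) was fitted to 25827 peaks; the 54354 H3K27ac peaks were treated alike. The 8 peaks on Y were left out. The procedure was tested on simulated data. A promoter peak lies within 1 kb of a RefSeq start of its gene; 1235 of 15805 symbols had no start. Reads per peak limit precision at weak peaks. Each library is a separate mouse number per the labels.

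Members and lists were chosen with earlier results of these data known. Named are, among called peaks without overlap between groups, at least at the lower quartile of level and with an established symbol, the 12 largest changes per direction at promoters and the 5 largest inside and outside genes; the 6 genes with the largest opposite pair; the 5 widest peaks per direction; and up to 5 members of each list by p. Some list members are counted but not reported here by name. HOX peaks and other list members were added after their values were seen. Alternatives were the values as deposited, median centring, a pseudocount of 1 RPKM, a level filter, array weights, the 17 libraries alone, age in weeks, the replicate block, the code digit, the mouse numbers, the marker score and leaving out each library. Replicate numbers did not pair the samples: deviations of same-numbered libraries correlated by -0.224 to 0.201.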

Additional observations from a re-analysis of the deposited data

Results flagged for a closer look

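In 17 of 342 groups of libraries at the named peaks (4.97%), a library stood apart from the rest of its group; chance flags about 1 in 20 groups. Values are log2 RPKM, and no explanation was tested. In aged group 3 a low library was seen at Adam23 (replicate 6, -0.38), the internal Morrbid peak (replicate 4, -0.51), Sall1 (replicate 4, 3.43), Pparg (replicate 10, 3.06), Dll1 (replicate 10, 2.44) and Hes1 (replicate 10, 3.13), and a high one at Lrrn4 (replicate 4, 2.9) and Igfbp5 (replicate 1, 3.63). In young a low library was seen at the internal Kcnip1 peak (replicate 2, -3.02), Kdr (replicate 5, 2.26), Itgam (replicate 4, 0.31) and Gas1 (replicate 5, 3.08), and a high one at Gins1 (replicate 5, 3.49), Meis2 (replicate 1, 4.01), Ovol2 (replicate 4, 3.1), Star (replicate 4, 2.97) and Muc4 (replicate 5, 1.5).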

How the results depend on the processing

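Main counts were 3675 peaks higher and 4246 lower, and 1182 promoter peaks higher and 2408 lower. In that order they were 1235, 1097, 272 and 691 with the code digit as a factor, 1278, 1181, 311 and 677 without digit 6 and 198, 76, 39 and 37 among digits with both groups (both chosen after seeing the data), 123, 52, 27 and 27 with the epithelium minus stroma score, 1847, 1761, 533 and 957 with a term for the series of mouse numbers, 224, 224, 70 and 92 among mouse numbers under 100, and 6663, 7733, 2653 and 4354 with array weights. Higher peaks numbered 2180 as deposited, with 442 at promoters, and 2174 at or above the lower quartile of level, where fewer peaks are tested. Leaving out each library gave 2874 to 4562, 3271 to 5201, 868 to 1653 and 1878 to 2862. H3K27ac calls were 15904, against 1365 with the code digit and 47 with the score. The replicate block gave 3208 and 3634 peaks, 1118 and 1952 at promoters and 16064 for H3K27ac. Its numbers pair no samples, and 1 of 7 correlated best with its own number.

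The score as a covariate turned the sign of 29 changes: Myh14 internal 0.119, Crabp2 -0.206, Frmd4b 0.009, Morrbid -0.032, Hoxb5os -0.098, Lrig1 -0.252, the wide Prdm1 peak 0.153 and its other promoter peak 0.02, Col1a2 0.061, Synpo2 0.124, Pgm5 0.044, Kdr 0.032, Sfn -0.118, Ovol2 -0.071, Snai2 0.117, Osr2 0.109, Snai1 0.075, Rara -0.034, Rarg 0.063, Hsd11b2 0.099, Akr1c14 0.169, Ptgfr 0.215, Gja1 0.012, Gli1 0.124, Hes1 -0.046, Fgf10 0.29, Igfbp4 0.017, Dhrs9 -0.23 and Gusb -0.135. Of these, Col1a2 and Ovol2 are themselves markers in the score. Among mouse numbers under 100 Pdpn was 0.047. The cause was not tested. As deposited the medians of FGF and EGF receptor signalling and of genes used in every cell type turned to -0.06 each. Peaks with few reads in young, such as Tmprss11g, have fold changes limited by depth.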

Other observations

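Promoter peaks on the X chromosome had these calls: 20 of 483 were higher (4.14%) and 97 lower (20.1%), while on chromosomes 1 to 19 9.17% were higher and 18.2% lower. Outside promoters 9.57% of X peaks were higher and 9.57% lower, and on chromosomes 1 to 19 19.9% and 14.6%. These shares were not tested against each other.

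The SD among libraries was larger in aged group 3 at 73.7% of peaks, with medians of 0.35 in aged group 3 and 0.246 in young, and at lost peaks at 91.9%, with medians of 0.512 and 0.259. At 24.2% of gained peaks, the most common case, 7 of 10 aged group 3 libraries lay above the young range, and at 27.7% of lost peaks 7 lay below it.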
